A study of Canis lupus familiaris with 15 samples.

Results

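The contractile genes described here are MYLK, MYL9, CALD1, TPM2, TPM4 and CAV1, which myoepithelial cells of the mammary gland use together. They were chosen by gene symbol, with earlier results of these data known. Of the 22176 probes on the array 8 carry these symbols: 3 for TPM2 and 1 for each of the others. Together they make 6 of the 5246 named genes. The series set 3 canine mammary tumour lines against each other on 2-colour cDNA arrays: P114, derived from an anaplastic carcinoma that arose in the mammary gland, CMT-U229, derived from a benign mixed tumour, and CMT-U335, derived from an osteosarcoma that arose in the mammary gland. Each line stands for 1 tumour, and all were grown to near confluence. There were 15 arrays, 5 for P114 against CMT-U335, 5 for P114 against CMT-U229 and 5 for CMT-U229 against CMT-U335, with the dyes swapped on some arrays of every pair.

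Myoepithelial cells form the contractile layer around mammary ducts and alveoli and squeeze milk forward. Contraction of this smooth muscle type starts when calcium and calmodulin switch on the myosin light chain kinase (MYLK), which phosphorylates the regulatory light chain of myosin (MYL9) so that myosin can pull on actin. Tropomyosins (TPM2, TPM4) lie along the actin filament and caldesmon (CALD1) binds actin, tropomyosin and myosin to hold the filament back or steady. Caveolin-1 (CAV1) builds caveolae, the small membrane pits in which contractile cells gather receptors and calcium handling proteins. Mixed tumours of the canine mammary gland are known for the growth of myoepithelial cells beside epithelium.

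All values below are log2 ratios of the line named first over the line named second, with means and standard errors (SE) from limma over 5 arrays. Calls rest on a Benjamini-Hochberg adjusted p under 0.05, taken over all 5246 genes. The ratios were read as Cy5 over Cy3, the order of the channels in the labels, so their direction is likely and not settled. If the deposited values ran the other way, every higher gene would be lower. Signal over background is unknown, because no intensities were used here, and precision is limited by how few arrays there are. By the labels each array is a biological replicate. The design text, however, mentions swapped dyes and sets the minimum of biological replicates at 1, so arrays of a pair may share RNA. SE and adjusted p over 5 arrays treat all arrays as independent, which swaps of the same RNA would not be. Some arrays did behave like such swaps. The arrays of P114 against CMT-U229 fell into couples of like values (1 with 3, and 2 with 5), as did those of CMT-U229 against CMT-U335 (2 with 3, and 4 with 5). Within these couples lay a median share of 0.0507 and 0.107 of the variation of the 208 and 133 genes used to find them, whereas in P114 against CMT-U335 no split into couples was clear (0.402 for the best). Counts with the couples averaged to 3 values are therefore given beside those over 5 arrays. In P114 against CMT-U335 they use the best split (1 with 3, and 4 with 5), although the next best came close (0.484).

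The 3 lines each stood apart in other parts of this machinery. MYLK was 4.66-fold higher in CMT-U229 than in CMT-U335 and 4.10-fold lower in P114 than in CMT-U229. MYL9 and TPM2 were lowest in P114, CALD1 and TPM4 were highest in CMT-U335, and CAV1 was highest in P114 and lowest in CMT-U229. In P114 against CMT-U335 4 members fell and 1 rose, where 22.3% of all genes were called (14.4% lower and 7.89% higher). P114 against CMT-U229 gave 3 members that fell and 1 that rose, beside 7.3% of all genes (3.98% lower and 3.32% higher). CMT-U229 against CMT-U335 also gave 3 that fell and 1 that rose, beside 17.3% (8.58% lower and 8.77% higher). With the couples averaged, 5, 2 and 3 members were called in the same order of pairs, beside 16%, 1.51% and 7.82% of all genes. The arrays carried RNA of whole cultures, so fewer cells that transcribe a gene and less RNA per cell cannot be told apart.

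**Figure D1:**
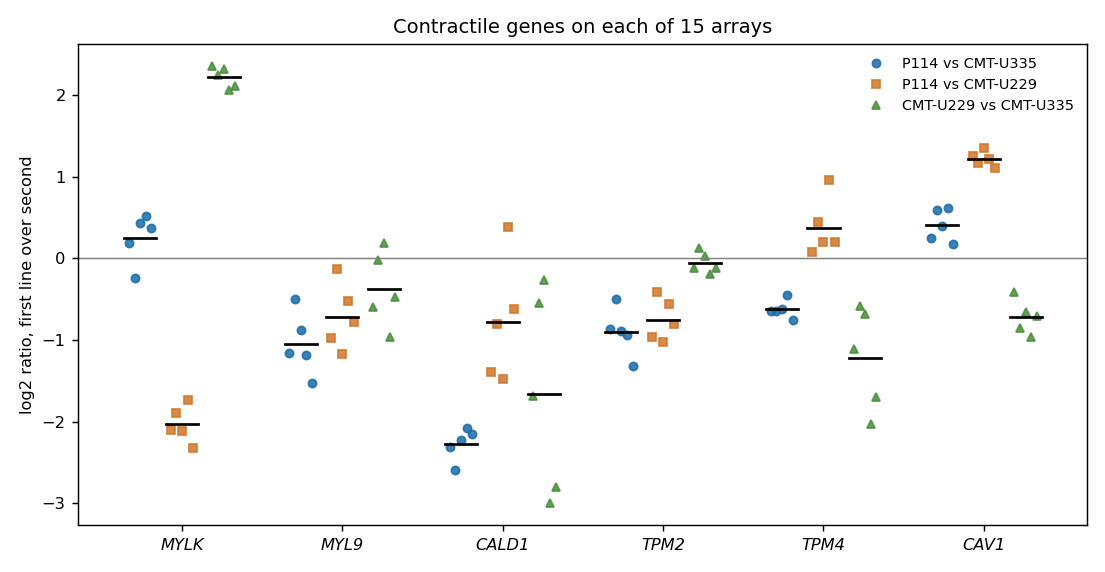
Log2 ratio of each contractile gene on each array, with the line named first over the line named second (vertical axis), by gene (horizontal axis) and pair of lines (colour and shape), where points stand for arrays in the order of their replicate number and black bars for the mean of 5. MYLK lies between 2.07 and 2.36 in CMT-U229 over CMT-U335 and CAV1 between 1.11 and 1.36 in P114 over CMT-U229, whereas CALD1 spreads from -3.00 to -0.26 in CMT-U229 over CMT-U335.

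MYLK encodes the kinase that switches on smooth muscle myosin. In CMT-U229 over CMT-U335 its ratio was 2.36, 2.25, 2.32, 2.07 and 2.12 on replicates 1 to 5. All 5 arrays lay close to each other and far above 0. The mean was 4.66-fold higher in CMT-U229 (2.22 ± 0.073 SE, n = 5, adjusted p = 2.96e-05), the 25th largest absolute ratio among all genes. Over CMT-U229, P114 had the kinase gene at -2.10, -1.90, -2.11, -1.74 and -2.32, again with all arrays on the same side. It was 4.10-fold lower in P114 (-2.03 ± 0.10, adjusted p = 0.000119), and both calls held with the couples averaged. P114 and CMT-U335, the lines with less of it, differed little. Their ratio was 0.19, -0.24, 0.44, 0.51 and 0.37, with replicate 2 alone below 0, and the mean of 0.25 ± 0.12 was not called (adjusted p = 0.187). Without replicate 2 it was 0.38 and passed the threshold (adjusted p = 0.0339).

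MYL9 encodes the regulatory light chain that MYLK phosphorylates, and its order over the lines was different. In P114 over CMT-U335 MYL9 was at -1.16, -0.50, -0.88, -1.19 and -1.52, below 0 on every array. It was 2.07-fold lower in P114 (-1.05 ± 0.14, n = 5, adjusted p = 0.00207). The ratio of P114 over CMT-U229 was -0.97, -0.14, -1.17, -0.52 and -0.77, so the direction was shared by all arrays but the size was not. The mean of -0.71 ± 0.15 was called (adjusted p = 0.0339). This call was lost without replicate 1, 3 or 5 (adjusted p = 0.122, 0.0974 and 0.110) with the couples averaged (adjusted p = 0.144), with a dye term (adjusted p = 0.0652) and with an ordinary one-sample test (adjusted p = 0.172). MYL9 in CMT-U229 over CMT-U335 was at -0.60, -0.02, 0.18, -0.97 and -0.48, with replicate 3 above 0, and was not called (-0.38 ± 0.17, adjusted p = 0.195).

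Kinase and light chain were thus set apart in different lines, and their ratios were compared within each array. MYLK minus MYL9 averaged 2.60 ± 0.40 (SD, n = 5) in CMT-U229 over CMT-U335, with every array above 0. The difference was -1.32 ± 0.33 in P114 over CMT-U229, with every array below 0, and in P114 over CMT-U335 it was 1.30 ± 0.63, above 0 on all 5. An exact permutation test that flips signs over arrays gave p = 0.0625 (two-sided) in each pair, the smallest that 5 arrays allow, and 0.075 after adjustment over 6 such comparisons. With the couples averaged to 3 values the smallest p possible is 0.25, and each of these 3 differences gave 0.25.

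CALD1, the actin and myosin binding protein caldesmon, had the largest mean difference and the widest spread of the members. In P114 over CMT-U335 it was at -2.31, -2.60, -2.23, -2.08 and -2.15, so that the arrays lay close together. It was 4.84-fold lower in P114 (-2.27 ± 0.093, n = 5, adjusted p = 2.47e-05), the 23rd largest absolute ratio. CALD1 in CMT-U229 over CMT-U335 was also below 0 on all 5 arrays, at -1.69, -0.55, -0.26, -3.00 and -2.80. Replicates 2 and 3 were near 0, replicates 4 and 5 were lowest and replicate 1 lay between them. The mean was -1.66 ± 0.43 (adjusted p = 0.0385), and its SD of 1.25 was larger than that of 98.6% of genes in this pair. The call was lost without replicate 1, 4 or 5 (adjusted p = 0.0843, 0.0927 and 0.122) and with a dye term (adjusted p = 0.0730). It was also lost with the couples averaged (adjusted p = 0.107) and with an ordinary one-sample test (adjusted p = 0.168). For P114 over CMT-U229 the values were -1.39, -0.80, -1.48, 0.38 and -0.62, with replicate 4 alone above 0. The mean of -0.78 ± 0.26 was not called (adjusted p = 0.141), whereas without replicate 4 it was -1.08 and called (adjusted p = 0.0134).

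The tropomyosins TPM2 and TPM4 both fell in P114 against CMT-U335, and 1 of them was called in each of the other pairs. TPM2, the beta tropomyosin typical of muscle, was averaged over its 3 probes. It was at -0.87, -0.49, -0.88, -0.94 and -1.32 in P114 over CMT-U335 (mean -0.90 ± 0.12, n = 5, adjusted p = 0.00174). Set against CMT-U229, P114 had TPM2 at -0.96, -0.41, -1.03, -0.56 and -0.81 (mean -0.75 ± 0.11, adjusted p = 0.00837). This call was lost with the couples averaged (adjusted p = 0.0881) and with an ordinary one-sample test (adjusted p = 0.0811). Every array of these pairs put TPM2 lower in P114. Between CMT-U229 and CMT-U335 the ratio was -0.12, 0.13, 0.02, -0.19 and -0.12, on either side of 0 and not called (-0.055 ± 0.074, adjusted p = 0.713).

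The probes of TPM2 disagreed. Probe 7496 was at -1.54 ± 0.22 in P114 over CMT-U335 and at -1.37 ± 0.12 in P114 over CMT-U229 (adjusted p = 0.00719 and 0.0021, over all 22176 probes). Probe 1487 was at -1.13 ± 0.22 and -0.82 ± 0.17 in the same pairs (adjusted p = 0.0207 and 0.0627). Probe 11634 lay near 0 in all 3 pairs, at -0.026 ± 0.11, -0.075 ± 0.11 and 0.025 ± 0.082, and none of its 15 values went beyond 0.35 on either side. Without this probe the mean of TPM2 was -1.34 in P114 over CMT-U335, -1.09 in P114 over CMT-U229 and -0.095 in CMT-U229 over CMT-U335, an alternative chosen after the values were seen. Over all probes taken by themselves, 10.3%, 3.4% and 8.23% were called in P114 against CMT-U335, P114 against CMT-U229 and CMT-U229 against CMT-U335. Tropomyosin genes resemble each other in sequence, and how far a probe also bound RNA of another tropomyosin was not tested.

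**Figure D2:**
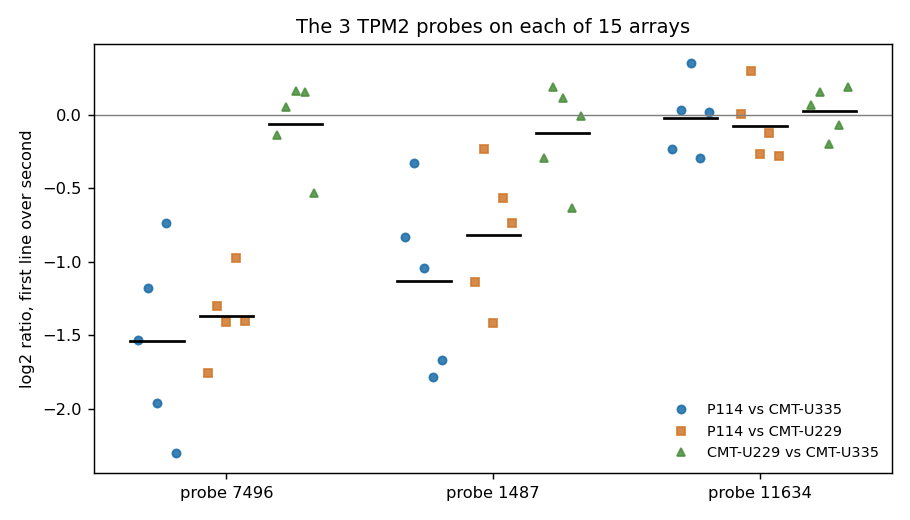
Log2 ratio of the 3 TPM2 probes on each array (vertical axis), with the line named first over the line named second, by probe (horizontal axis) and pair of lines (colour and shape), where points stand for arrays and black bars for the mean of 5. Probes 7496 and 1487 lie below 0 on every array of both pairs that hold P114, whereas probe 11634 stays between -0.29 and 0.35 in all pairs.

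TPM4, a tropomyosin of non-muscle filaments, was set apart in CMT-U335. In P114 over CMT-U335 it was at -0.64, -0.64, -0.62, -0.45 and -0.76, with little spread (SD 0.11, larger than that of 10.3% of genes). It was 1.54-fold lower in P114 (-0.62 ± 0.075, n = 5, adjusted p = 0.00128). The ratio in CMT-U229 over CMT-U335 was -1.11, -0.59, -0.69, -2.03 and -1.70, below 0 on every array but with replicates 4 and 5 far lower than 2 and 3. The mean was 2.33-fold lower in CMT-U229 (-1.22 ± 0.22, adjusted p = 0.00998; adjusted p = 0.0477 with the couples averaged and 0.0828 with an ordinary one-sample test). TPM4 in P114 over CMT-U229 was above 0 on all 5 arrays, at 0.081, 0.45, 0.20, 0.95 and 0.20, yet not called (0.38 ± 0.13, adjusted p = 0.173).

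Set against each other within arrays, TPM4 minus TPM2 averaged 1.13 ± 0.25 (SD, n = 5) in P114 over CMT-U229 and was above 0 on all 5 arrays. It averaged -1.17 ± 0.52 in CMT-U229 over CMT-U335 and was below 0 on all 5. The exact permutation test gave p = 0.0625 for either, the smallest possible, and 0.075 after adjustment (0.25 with the couples averaged). In P114 over CMT-U335 the difference was 0.28 ± 0.28, above 0 on 4 arrays (exact p = 0.125, adjusted 0.125). These differences take TPM2 with its flat probe 11634. Without that probe TPM2 averaged -1.34 in P114 over CMT-U335, where TPM4 averaged -0.62, and their difference was then not tested.

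CAV1, which builds caveolae, differed in all 3 pairs. In P114 over CMT-U229 it was at 1.25, 1.17, 1.36, 1.22 and 1.11. This was the tightest set among the members, with an SD of 0.093, and CAV1 was 2.33-fold higher in P114 (1.22 ± 0.073, n = 5, adjusted p = 0.000179). The ratio in CMT-U229 over CMT-U335 was -0.41, -0.85, -0.66, -0.97 and -0.71, below 0 on every array (-0.72 ± 0.093, adjusted p = 0.00257). Against CMT-U335, P114 had CAV1 at 0.25, 0.59, 0.40, 0.62 and 0.17, above 0 on every array but small (0.41 ± 0.093, adjusted p = 0.0177). That last call was lost without replicate 2, 3 or 4 (adjusted p = 0.0569, 0.0552 and 0.0629) and with an ordinary one-sample test (adjusted p = 0.0633). All 3 calls of CAV1 held with the couples averaged.

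A fit of the loop over all 15 arrays placed each line against the mean of the 3 lines. MYLK was at -0.59 in P114, 1.42 in CMT-U229 and -0.82 in CMT-U335, and in the fit by pair only the neighbours P114 and CMT-U335 were not called apart (the loop fit did call them, adjusted p = 0.0348). MYL9 was at -0.59, 0.11 and 0.48 in the same order of lines, and CMT-U229 and CMT-U335 were not called apart. CALD1 was at -1.02, -0.29 and 1.31, and P114 and CMT-U229 were not called apart. MYLK thus stood high in CMT-U229 and CALD1 in CMT-U335.

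TPM2 was at -0.55 in P114, 0.23 in CMT-U229 and 0.32 in CMT-U335, and the last 2 were not called apart. TPM4 was at -0.082, -0.53 and 0.61, where P114 and CMT-U229 were not called apart by pair, though the loop fit did so (adjusted p = 0.0302). CAV1 was at 0.54, -0.65 and 0.10, and every pair was called. Both pairs that hold a line had to call a gene the same way for it to count as set apart there. MYLK met this as higher in CMT-U229 (1.73% of all genes did) and CAV1 as lower there (1.05%). MYL9 and TPM2 met it as lower in P114 (1.93%) and CAV1 as higher in P114 (2.06%), and CALD1 and TPM4 met it as higher in CMT-U335 (6.2%). With limma on averaged couples MYL9 and TPM2 were not called in P114 against CMT-U229 (adjusted p = 0.144 and 0.0881). CALD1 was then not called in CMT-U229 against CMT-U335 (adjusted p = 0.107), so MYL9, TPM2 and CALD1 no longer met the rule. The pairs of a line share that line's RNA, so they are not independent of each other.

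**Figure D3:**
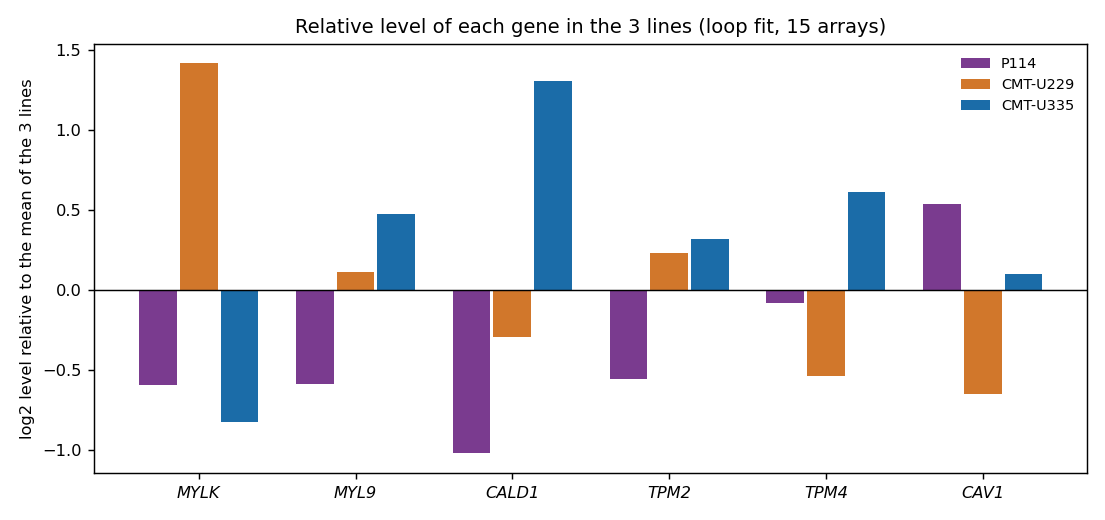
Level of each contractile gene in P114, CMT-U229 and CMT-U335 on a log2 scale relative to the mean of the 3 lines (vertical axis), by gene (horizontal axis), where bars are values of the loop fit over 15 arrays and carry no error bars. MYLK stands at 1.42 in CMT-U229 and CALD1 at 1.31 in CMT-U335, the highest bars.

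The direct ratio of P114 over CMT-U335 was set against the sum of the other pairs. It came to 0.25 directly and 0.19 indirectly for MYLK, to -1.05 and -1.09 for MYL9, to -2.27 and -2.44 for CALD1 and to -0.90 and -0.81 for TPM2. For TPM4 it was -0.62 and -0.85, and for CAV1 0.41 and 0.50. The widest gap among the members was 0.22 ± 0.30 (TPM4). With limma no gene of 5246 (0%) was called for such a gap, and 17 had an unadjusted p under 0.05. That is far fewer than a threshold of 0.05 gives by itself when arrays are independent. The test was thus too lenient to show that direct and indirect ratios agree, and the reason was not tested.

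The arrays of a pair differed from each other in a way that several members shared. Taking each array's deviation from the mean of its pair, CALD1 and TPM4 correlated at 0.94 over 15 arrays, and MYL9 and TPM2 at 0.88. CALD1 with MYL9 reached 0.59 and TPM2 with TPM4 0.49. Not all of these held within single pairs (n = 5 each). CALD1 with TPM4 was at 0.28 in P114 over CMT-U335, 0.90 in P114 over CMT-U229 and 0.98 in CMT-U229 over CMT-U335. In the same order of pairs CALD1 with MYL9 was at -0.82, 0.56 and 0.91, and MYL9 with TPM2 at 0.95, 0.98 and 0.88. CAV1 stayed between 0.042 and 0.26 with the other members over the 15 arrays. Within single pairs it ran from -0.63 (MYL9, P114 over CMT-U229) to 0.77 (MYLK, CMT-U229 over CMT-U335). CALD1 averaged -0.41 on replicates 2 and 3 of CMT-U229 over CMT-U335 and -2.90 on replicates 4 and 5, while TPM4 averaged -0.64 and -1.86 and MYL9 0.082 and -0.72 on the same arrays. MYLK averaged 2.28 and 2.09 on those arrays and CAV1 -0.76 and -0.84, gaps that were smaller in size than those of CALD1, TPM4 and MYL9. MYLK correlated at 0.48 with CALD1 and at 0.49 with TPM4 over the 15 deviations.

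Each of these couples held arrays of opposite dyes, and for CALD1 the arrays of a couple differed by 0.28 and 0.20. Replicate 4 of P114 over CMT-U229 was the highest for CALD1 (0.38) and for TPM4 (0.95), whereas in P114 over CMT-U335 CALD1 and TPM4 hardly varied (SD 0.20 and 0.11). The pairs share lines and the arrays of a couple may share RNA, so these correlations are a description without a test.

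**Figure D4:**
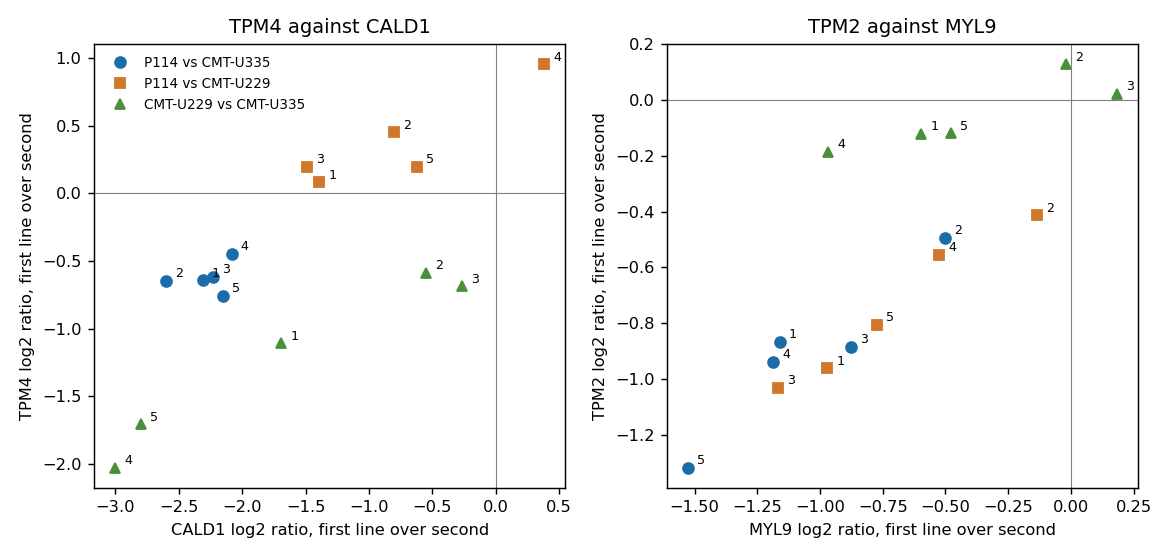
Log2 ratio of TPM4 against that of CALD1 (left) and of TPM2 against that of MYL9 (right) on each array, with the line named first over the line named second on both axes, pairs of lines by colour and shape, and replicate numbers beside the points. In CMT-U229 over CMT-U335 replicates 4 and 5 are lowest for CALD1 (-3.00 and -2.80) and for TPM4 (-2.03 and -1.70), and replicates 2 and 3 are highest.

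Some other genes of the contractile apparatus were called in the pairs that hold CMT-U335. Of 35 listed contractile proteins 17 were measured. In P114 against CMT-U335 2 of them fell and none rose: the non-muscle myosin heavy chain MYH9 (-0.56 ± 0.088, n = 5, adjusted p = 0.00372) and the actin crosslinker FLNA (-0.48 ± 0.099, adjusted p = 0.0117). These made 11.8% of the list, below the 22.3% of all genes called in this pair. The median of the list was -0.049, against -0.023 for all genes. In CMT-U229 against CMT-U335 4 fell and 1 rose (29.4% called beside 17.3% of all genes, median -0.052 against -0.0050 for all genes). The tropomyosin TPM1 was at -0.91 ± 0.15, MYH9 at -0.81 ± 0.18 and FLNA at -0.48 ± 0.097, whereas DSTN rose (0.38 ± 0.077, adjusted p = 0.0163). In P114 against CMT-U229 limma called 0 of 17, with 4 at an unadjusted p under 0.05, 2 called by a SAM-type test and 0 by an ordinary one-sample test. PDLIM1 had the largest ratio there (0.56 ± 0.15, adjusted p = 0.069).

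Some defining markers of smooth muscle and myoepithelial differentiation are given as a description, since they were picked with their values known. None of those named in this paragraph was called by limma in any pair. ACTA2, the smooth muscle actin, stood at 0.22 ± 0.085 in P114 over CMT-U335, at -0.061 ± 0.11 in P114 over CMT-U229 and at 0.27 ± 0.17 in CMT-U229 over CMT-U335. ACTG2, the other smooth muscle actin, was at 0.28 ± 0.098, 0.12 ± 0.10 and 0.22 ± 0.15 in the same order of pairs. MYH11, the smooth muscle myosin heavy chain, was at 0.11 ± 0.12, 0.056 ± 0.092 and -0.052 ± 0.097. TAGLN, an actin binding protein of smooth muscle, was at -0.11 ± 0.074, -0.37 ± 0.099 and 0.15 ± 0.12, and in P114 over CMT-U229 it was below 0 on all 5 arrays (adjusted p = 0.0711 with limma, called by the SAM-type test). A ratio near 0 can mean like levels or no signal in either line, and these arrays do not separate the cases. Whether any line carries the defining markers of myoepithelial cells therefore cannot be read from these arrays, and the genes described here are called by their role.

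Other tropomyosins and light chains, also picked after their values were seen, were set beside the members. TPM1 was at -0.12 ± 0.16 in P114 over CMT-U335, at 0.50 ± 0.16 in P114 over CMT-U229 and at -0.91 ± 0.15 in CMT-U229 over CMT-U335, where it alone was called (adjusted p = 0.00664). TPM3 was at -0.13 ± 0.090, 0.38 ± 0.13 and -0.59 ± 0.19 in the same pairs, with none called. The order of the pairs for both was that of TPM4 and not that of TPM2. MYL12B, the non-muscle regulatory light chain, was at -0.46 ± 0.14, -0.12 ± 0.095 and -0.46 ± 0.12, called in the last alone (adjusted p = 0.0382). MYL6, an essential light chain, was at 0.20 ± 0.13, -0.075 ± 0.094 and 0.22 ± 0.13, with none called, and its sign in the pairs with CMT-U335 was opposite to that of MYL9 and MYL12B.

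The deviations of single arrays from their pair's mean were also set against those of other contractile genes. Of the 17 contractile proteins 8 correlated above 0.5 with TPM4, led by MYH9 (0.89), where 12.1% of all genes did. With CALD1 5 of 17 did, again led by MYH9 (0.86), where 9.19% of all genes did. With MYL9 and with TPM2 3 of 17 did, led by TPM1 (0.78 and 0.71), where 6.62% and 6.16% of all genes did. With MYLK 4 of 17 did, beside 6.45% of all genes, and with CAV1 5 of 17, beside 21.8%. The median correlation of the list was 0.39 for TPM4, 0.40 for CALD1, 0.32 for MYL9, 0.29 for MYLK and 0.17 for TPM2, against medians over all genes between -0.0051 and 0.052. For CAV1 it was 0.14, below the 0.18 of all genes. These values too are descriptions over 15 arrays.

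Markers of other cell types moved beside the contractile genes. Of 5 measured luminal epithelial markers 3 rose and 1 fell in P114 over CMT-U335, with the adhesion molecule EPCAM at 3.55 ± 0.15 and the keratin KRT18 at 3.48 ± 0.19. P114 over CMT-U229 had 2 that rose (KRT18 at 2.41 ± 0.14 and EPCAM at 1.80 ± 0.099), and in CMT-U229 over CMT-U335 3 rose, led by KRT8 at 2.56 ± 0.23. In this order of pairs 80%, 40% and 60% of the list were called, beside 22.3%, 7.3% and 17.3% of all genes. The list's median ranged over arrays from 1.68 to 3.04, from 0.0099 to 0.41 and from 0.68 to 0.99. EPCAM and KRT18 were thus lowest in CMT-U335, the line with the highest CALD1 and TPM4, and their part in these differences was not tested. TJP1 and MUC1 leaned the other way. TJP1 was at -0.35 ± 0.082 in P114 over CMT-U335 (called) and at -0.33 ± 0.092 in CMT-U229 over CMT-U335 (not called). MUC1 was at -0.14 ± 0.081 and -0.30 ± 0.085 there, called in neither.

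Of 10 fibroblast and mesenchymal markers 2 rose and 3 fell in P114 over CMT-U335, with the collagen COL1A2 at -1.39 ± 0.14 and the fibronectin FN1 at 1.18 ± 0.19. P114 over CMT-U229 had 4 that rose and 0 that fell (COL1A2 at 2.06 ± 0.30, S100A4 at 1.54 ± 0.084), and in CMT-U229 over CMT-U335 5 fell and 0 rose (COL1A2 at -3.39 ± 0.22, S100A4 at -1.58 ± 0.19). In this order of pairs 50%, 40% and 50% of the list were called, beside 22.3%, 7.3% and 17.3% of all genes. The median of the list ranged over arrays from -0.45 to 0.040, from 0.26 to 0.63 and from -0.77 to -0.39. COL1A2 and S100A4 were lower in CMT-U229 than in either other line, the line highest in MYLK and lowest in CAV1, and their part in those differences was not tested either. DCN was also called lower there in both pairs, but other markers of the list were not. FN1 was at 0.28 ± 0.13 and COL3A1 at 0.012 ± 0.076 in CMT-U229 over CMT-U335, neither called. ZEB1 was at -0.17 ± 0.073 in P114 over CMT-U229, not called.

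Of 7 other basal and myoepithelial markers 3 were called in P114 over CMT-U335: the small heat shock protein CRYAB (-1.79 ± 0.16) and the cytoskeletal linker DST (-0.86 ± 0.11) fell and the laminin chain LAMA3 rose (1.58 ± 0.24). The same 3 were called in P114 over CMT-U229, with CRYAB at -1.70 ± 0.18, DST at -0.58 ± 0.078 and LAMA3 at 2.47 ± 0.29. The integrin ITGA6 rose in CMT-U229 over CMT-U335 (0.89 ± 0.15) and LAMA3 fell (-1.20 ± 0.18) there. In this order of pairs 42.9%, 42.9% and 28.6% of the list were called, beside 22.3%, 7.3% and 17.3% of all genes. The list's median ranged over arrays from -0.14 to 0.079, from -0.52 to 0.44 and from -0.45 to 0.32. CRYAB and DST were thus lower in P114 beside MYL9 and TPM2, whereas LAMA3 was higher in P114 beside CAV1.

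The genes whose ratios ran most like each member over the 15 arrays, by uncentred correlation among 5244 other genes, came from several functions. MYLK was followed most closely by the iron reductase CYBRD1 (0.98), RGCC (0.97) and the lysyl oxidase LOXL3 (0.97). MYL9 was followed by the dehydrogenase IDH1 (0.94), by TPM2 (0.94) and by catalase, CAT (0.93), and CALD1 by SRSF11, IDH2 and HSD17B12 (0.98, 0.96 and 0.96). TPM2 was followed by CRYAB, LOC480844 and EPB41L1 (0.97, 0.97 and 0.96), TPM4 by COA1, DRAM2 and FBLN2 (0.95 each) and CAV1 by EPDR1, AGPAT4 and MMADHC (0.99, 0.97 and 0.97). Many genes that separate the same lines score high on this measure. By deviations from the pair means, a measure added after the data were seen, the gene nearest to TPM4 was CALD1 (CALD1 itself was nearest to CSNK2A1 and then to TPM4), and the nearest to MYL9 and to TPM2 was the other of them.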

How the data were processed

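Total RNA of the cell lines was amplified by T7 transcription and labelled with Cy3 and Cy5 dyes, per the labels' protocols. The authors' deposited table holds log2 ratios of the dyes, which the design text calls normalized. How was not given in the sources used here, nor was the base, which was read as 2 from the largest absolute value, 12.43. Array medians lay between -0.00671 and 0.0134. The table has 22176 probes and 2 missing values. The platform annotation named 7694 probes, and the current symbol of 7340 came from the RefSeq table by Entrez number of assembly UU_Cfam_GSD_1.0.

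Arrays of opposite dyes had their sign flipped, and a gene's probes were averaged. Separate fits per pair used limma 3.58.1 in R 4.3.3 (lmFit and eBayes, mean against 0, two-sided), for genes with a value on at least 3 arrays. Turned arrays of a pair correlated at 0.20 to 0.50 where the dye order was the same. Where it was opposite they correlated at -0.00015 to 0.35, a lower range in every pair. The fit was checked on simulated arrays that were independent, so the check cannot show how couples of shared RNA affect the calls. Lists got no test. Named were all members, up to 3 called genes per list and pair (or the largest ratio where none was called) and the 3 genes most like each member. The members, lists, couples and most alternatives were chosen with earlier results of these data known. Deviations of same-numbered arrays of different pairs correlated from -0.25 to 0.33, with mixed signs, so the replicate number was not used as a block in the main fits. Where nothing says that arrays came from separate cultures, p-values measure the spread between arrays. A result for 1 listed regulator is not reported here.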

Additional observations from a re-analysis of the deposited data

How the results depend on the processing

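No member's mean changed sign with a call under any alternative, while over all alternatives a member's mean lost its call 27 times and gained one 4 times. The members called numbered 4 to 5 without each replicate in P114 against CMT-U335, 3 to 5 in P114 against CMT-U229 and 3 to 4 in CMT-U229 against CMT-U335. They numbered 2 in P114 against CMT-U229 with the apparent dye swaps averaged, and 2 there and 2 in CMT-U229 against CMT-U335 with an ordinary one-sample test. All genes called were 1169, 383 and 910 in the 3 pairs. They numbered 1757, 1056 and 1445 in a loop fit over all arrays, 689, 130 and 518 with the ordinary test and 642, 159 and 470 at a threshold of 0.01. Probes by themselves gave 2289, 754 and 1826. In P114 against CMT-U229 a fit over all 15 arrays gave 650, a threshold of 0.1 gave 578 and averaged swaps gave 79, against 410 in CMT-U229 against CMT-U335. Without each replicate they ranged from 835 to 1031, from 202 to 408 and from 571 to 863. In P114 against CMT-U229 the count fell to 202, 224, 235 and 223 without replicates 1, 2, 3 and 5, and in CMT-U229 against CMT-U335 to 586 and 571 without replicates 2 and 5. Blocking on replicate numbers gave 1172, 515 and 920, with 5, 4 and 4 members, so the replicate block changed no member's call. The causes were not tested. Relative levels kept their sign without each replicate. The loop closure of CALD1 ranged from -0.16 to 0.52, of MYL9 from -0.11 to 0.19, of MYLK from -0.0059 to 0.19 and of TPM2 from -0.19 to 0.013, so its sign is not settled for these, and none was called.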

Other observations

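Regulators of contraction and partners of caveolin are set beside the members here. Of 8 measured regulators of myosin and contraction limma called 1 in CMT-U229 over CMT-U335, the kinase PAK1 (0.76 ± 0.18, n = 5, adjusted p = 0.0294), where 17.3% of all genes were called. P114 over CMT-U229 had 0 of 8 called, with 2 at an unadjusted p under 0.05 and 0 by the SAM-type or the ordinary test, and PAK1 had the largest ratio (-0.68 ± 0.21). PAK1 can phosphorylate caldesmon and MYLK.

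Of 5 measured caveolae genes the caveolar coat protein CAVIN3 rose in CMT-U229 over CMT-U335 (0.65 ± 0.066, n = 5, adjusted p = 0.00104), the pair in which CAV1 fell. FLOT1, a scaffold of membrane rafts, fell in that pair (-0.34 ± 0.081) and in P114 over CMT-U335 (-0.51 ± 0.12). Of this list 40% and 20% were called in these pairs, beside 17.3% and 22.3% of all genes. Limma called 0 of 5 in P114 over CMT-U229, with 3 at an unadjusted p under 0.05, 1 by the SAM-type test and 0 by the ordinary test, and CAVIN3 stood at -0.41 ± 0.11, where CAV1 was at 1.22 ± 0.073. In P114 over CMT-U335 CAVIN3 stood at 0.29 ± 0.11 (adjusted p = 0.117) and CAV1 at 0.41 ± 0.093, so that CAVIN3 and CAV1 had opposite signs in 2 pairs and the same sign in the other.

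Of 21 striated muscle markers 2 fell in P114 over CMT-U335, the light chain MYL2 (-0.50 ± 0.11) and ACTN2 (-0.31 ± 0.075), and MYL2 fell in CMT-U229 over CMT-U335 (-0.75 ± 0.13). These calls made 9.52% and 4.76% of the list, below the 22.3% and 17.3% of all genes. P114 over CMT-U229 had 0 of 21 called, with 0 at an unadjusted p under 0.05 and 0 by either other test, and TNNI2 had the largest ratio (-0.20 ± 0.11). The medians of this list lay between -0.11 and 0.094 on all arrays.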
